A study of Rattus norvegicus with 8 samples.

Results

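Apoptosis, the programmed death of cells, was followed in rat lung through 9 genes: the anti-apoptotic BCL2 family members Bcl2, Bcl2l1 and Mcl1, the pro-apoptotic members Bax, Bak1 and Bid, the death receptor Fas, and the initiator caspases Casp8 and Casp9. The genes were chosen by name, and all non-control array probes whose RefSeq accession belongs to them were taken. This gave 17 of the 45598 probes on the array, with at least 1 for each of the 9 genes, out of 16667 genes that could be named. Probes entered the tests if some group had them well above background on each of its 2 arrays; 29801 probes did, and all 17 were among them. A gene with several probes was represented by the one with the highest mean level.

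Lung tissue of male rats was measured on 8 1-colour microarrays, 2 per group, from 30 mg of tissue and 200 ng of RNA labelled with Cy3. One group breathed cigarette smoke for 12 weeks and then received hUC-MSC-EV, extracellular vesicles of human umbilical cord mesenchymal stem cells, into the trachea at week 13 (EV-treated smoke). A second group had the same exposure and route but received hUC-MSC, the cells themselves, in about the number from which the vesicles had been isolated (MSC-treated smoke). The third group had the 12 weeks of smoke with no treatment named (smoke), and the fourth breathed normal air (naive). The labels give neither the strain nor the age of the animals, nor whether untreated rats received a sham delivery. Whether the 2 samples of a group came from different animals is not given, so the p-values rest on a spread between samples that may be technical. All arrays lay on 1 slide and in 1 scan, each group in a slide column of its own, and effects of the column cannot be told apart from those of the group.

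Apoptosis starts by either of 2 routes. Outside the cell, a ligand binds a death receptor such as FAS, which recruits the adaptor FADD and activates caspase 8; inside, BAX and BAK1 open the outer mitochondrial membrane, cytochrome c leaves, and APAF1 activates caspase 9. BCL2, BCL-xL (the long product of Bcl2l1) and MCL1 hold BAX and BAK1 in check, and BID, once cut by caspase 8, carries the signal from the receptor to the mitochondria. Epithelial and endothelial cell death of this kind is a known feature of lungs damaged by smoke. The arrays measured RNA, not the cut or activated proteins.

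RefSeq promoter sequences (build GRCr8, from 250 bases before to 50 after the transcript start, 5' to 3' on the gene's strand) were matched by symbol for 7 of the 9 genes, without Bax and Casp8. They are shown for the 3 genes with a promoter in the table whose leading probe passed the test in smoke against naive lung, Bid, Bcl2l1 and Bak1. Capitals mark the motifs searched on both strands: the GC box GGGCGG, the CCAAT box, the TATA box TATAAA, the STAT element TTCNNNGAA and the ETS element CCGGAA. Bid lies on the minus strand at chr4:155808270-155808569 and Bak1 on the minus strand at chr20:5110925-5111224. Bcl2l1 has 4 starts in the table, and 2 on the minus strand are shown, start a at chr3:161764726-161765025 and start b at chr3:161763336-161763635.
Bid: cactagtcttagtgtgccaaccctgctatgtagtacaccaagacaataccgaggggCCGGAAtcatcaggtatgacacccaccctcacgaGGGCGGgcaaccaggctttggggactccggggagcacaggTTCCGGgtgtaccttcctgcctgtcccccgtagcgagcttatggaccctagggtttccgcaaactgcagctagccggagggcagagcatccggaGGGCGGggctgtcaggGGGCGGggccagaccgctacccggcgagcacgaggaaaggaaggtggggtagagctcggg
Bcl2l1 start a: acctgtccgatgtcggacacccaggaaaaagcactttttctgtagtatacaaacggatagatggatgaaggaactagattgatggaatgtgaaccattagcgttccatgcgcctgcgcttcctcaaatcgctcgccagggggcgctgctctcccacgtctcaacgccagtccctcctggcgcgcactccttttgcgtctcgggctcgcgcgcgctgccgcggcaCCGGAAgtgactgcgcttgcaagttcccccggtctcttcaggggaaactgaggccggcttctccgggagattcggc
Bcl2l1 start b: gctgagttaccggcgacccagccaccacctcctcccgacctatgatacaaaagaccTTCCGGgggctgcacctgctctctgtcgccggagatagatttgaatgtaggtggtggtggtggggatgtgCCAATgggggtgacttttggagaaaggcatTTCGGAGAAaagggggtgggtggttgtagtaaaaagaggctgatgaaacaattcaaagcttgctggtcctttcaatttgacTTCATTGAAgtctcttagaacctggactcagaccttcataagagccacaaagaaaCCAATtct
Bak1: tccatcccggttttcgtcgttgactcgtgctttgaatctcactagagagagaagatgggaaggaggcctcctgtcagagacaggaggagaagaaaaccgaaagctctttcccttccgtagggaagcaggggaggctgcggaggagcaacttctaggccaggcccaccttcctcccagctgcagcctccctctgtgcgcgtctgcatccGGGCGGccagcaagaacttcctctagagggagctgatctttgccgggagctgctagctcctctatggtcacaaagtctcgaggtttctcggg
The Bid promoter held 3 GC boxes and 2 ETS elements, start b of Bcl2l1 held 2 CCAAT boxes, 2 STAT elements and 1 ETS element, start a of Bcl2l1 held 1 ETS element, and that of Bak1 held 1 GC box. Of all 33469 promoters in the table, 33.1% held a GC box, 37.5% a CCAAT box, 14.2% a TATA box, 8.87% a STAT element and 15.0% an ETS element. These are matches of letters, given as a description of the sequences.

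A level is the log2 of a probe's processed signal minus the 75th percentile of its array, so 0 is the brightness of that percentile. The percentile itself was 762 and 483 signal units on the EV-treated arrays, 246 and 256 on the MSC-treated arrays, 3235 and 2677 on the smoke arrays and 568 and 362 on the naive arrays. The E1A probes, positive controls for a labelled RNA that is not from rat, averaged between 11.0 and 11.6 on the log2 scale on all 8 arrays. Scaling to the percentile or to E1A therefore gives different directions for many genes. Going from the percentile to the E1A scale moves every probe of a comparison by the same amount. That shift is upward in smoke against naive lung and downward in both treatments against untreated smoke. A probe already on that side keeps its sign by construction, so agreement of the 2 scales there is no second check. The median difference of all kept probes between smoke and naive lung was -0.56 on the percentile scale and 2.40 on the E1A scale. It was 0.50 and -1.98 for EV-treated against untreated smoke, and 0.68 and -3.34 for MSC-treated against untreated smoke. Why the smoke arrays were brighter was not tested. All 5 alveolar type 2 cell markers were detected on every array.

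In smoke-exposed lung, Casp8 and Bid were higher than in naive lung, 5.66-fold and 3.02-fold by their leading probes on the percentile scale. They were higher on the E1A scale too, as any probe higher on the percentile scale must be in this comparison. Bcl2l1 was 7.81-fold lower and Bak1 2.01-fold lower on the percentile scale, but on the E1A scale Bcl2l1 differed by -0.0024 and Bak1 was higher by 1.96 in log2. Bcl2, Mcl1, Fas and the leading probes of Bax and Casp9 did not pass the test (limma, Benjamini-Hochberg adjusted p of at least 0.05). In all, 9 of the 17 probes passed, 3 higher and 6 lower, where 46.5% of all kept probes passed, 12.8% higher and 33.7% lower; the share that passed is therefore near that of the whole array and is no result about these genes. The members' median difference was -0.89 over the 17 probes and -0.58 over the 9 genes by leading probe, against -0.56 over all kept probes. Scaled to E1A, 14 of the 17 were higher and 0 lower, where 24853 of the 29801 kept probes were higher. Without smoke replicate 1, 1 of the 17 passed, where 16.3% of all kept probes did. Without smoke replicate 2 it was 5 (34.5% of all kept probes), and without naive replicate 2 it was 4 (30.4%), so calls were lost across the whole array. In bulk tissue, a smaller share of cells that express a gene and less of its RNA per cell cannot be told apart.

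**Figure D1:**
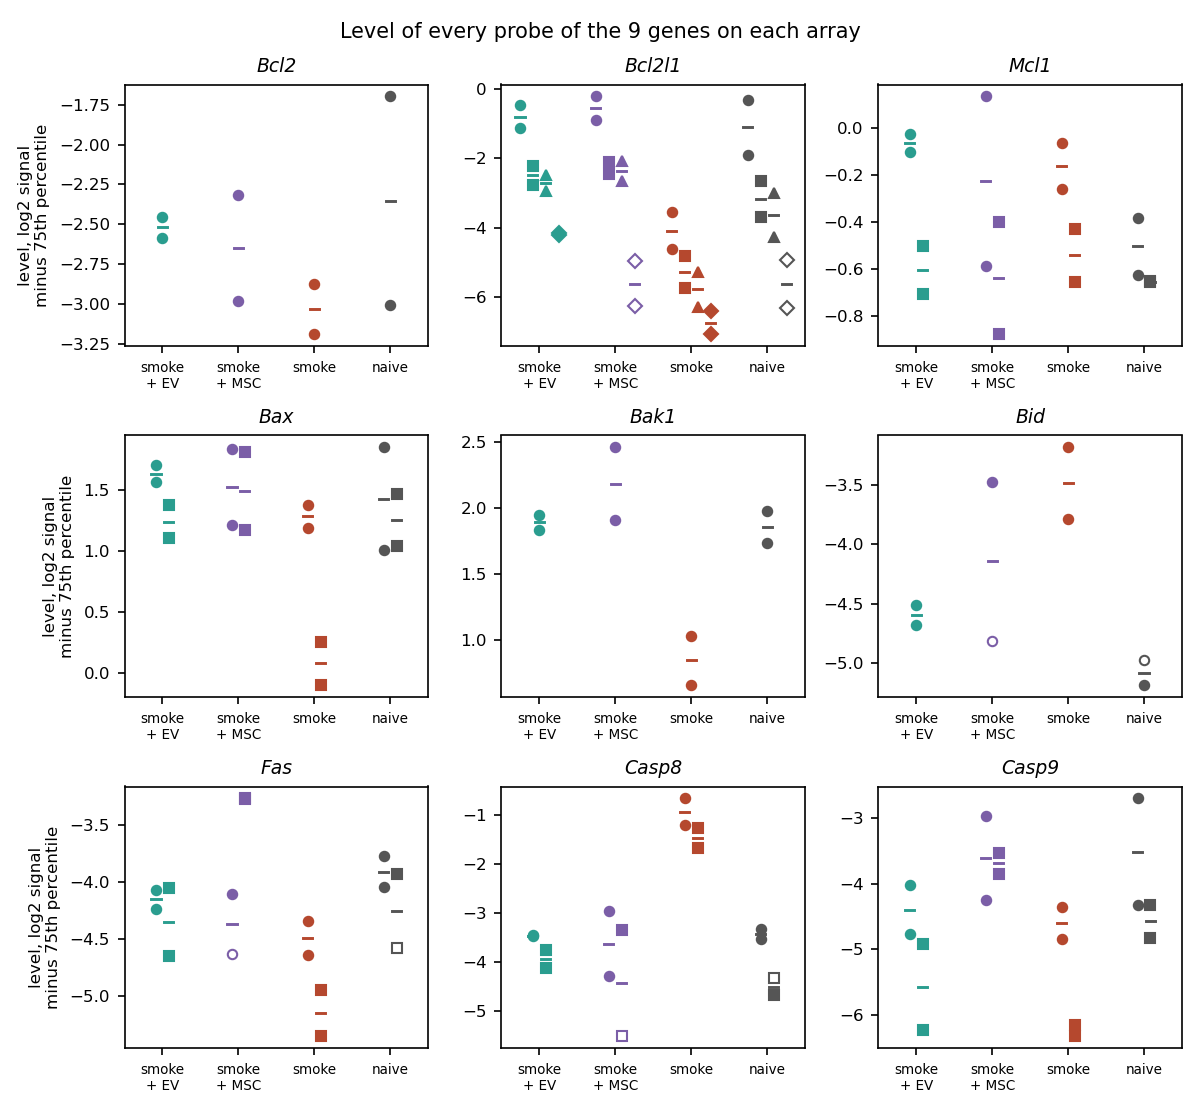
Levels of the 17 probes on each of the 8 arrays, as log2 signal minus the array's 75th percentile; each marker shape is 1 probe, bars are group means, and open markers were not well above background. Both Casp8 probes lay between -0.65 and -1.66 on smoke arrays and at or below -2.96 on the other 6 arrays; the Bcl2l1 and Bak1 levels were lowest on smoke arrays, an order that does not hold on the E1A scale.

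Casp8, the initiator caspase of the death receptor route, had 2 probes. The leading one, A_42_P453853, had levels of -0.65 and -1.20 on smoke arrays, against -3.52 and -3.33 on naive arrays. Its unscaled signal was 2056 and 1167 units on smoke arrays, against 49.5 and 35.9 units on naive arrays. The groups did not overlap on either scale. The difference was 2.50 ± 0.45 in log2 (SE, n = 2 each; limma adjusted p = 0.00501), or 3.06 above the median of all probes. The other probe, A_44_P1083208, had levels of -1.25 and -1.66 on smoke arrays, against -4.68 and -4.33 on naive arrays, of which the second was not well above background. Its difference was 3.05 ± 0.63 (SE, n = 2 each; limma adjusted p = 0.00805). Scaled to E1A, the 2 probes differed by 5.46 and 6.01. Of the settings of processing and left-out arrays, some changed only the filter, the block, the estimate of the spread or a treated array. These left the leading probe's difference as it was, and E1A scaling could only raise it. The counts of settings are therefore not separate checks of direction. Across the 19 settings of processing and left-out arrays, the leading probe was higher in smoke in all 19 and passed in all 19, with differences between 1.38 and 5.46. The other probe was higher in all 18 in which it was tested and passed in 17.

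After treatment, the leading Casp8 probe had levels of -3.48 and -3.45 on EV-treated arrays and -4.30 and -2.96 on MSC-treated arrays. Every treated array lay below both smoke arrays, and the naive levels lay within the range of the treated ones. EV-treated smoke lung was 5.81-fold below untreated smoke lung (log2 difference -2.54 ± 0.45, SE, n = 2 each; limma adjusted p = 0.00662). MSC-treated smoke lung was 6.52-fold below it (-2.70 ± 0.45, SE, n = 2 each; limma adjusted p = 0.00182). The other probe was lower too, with differences of -2.48 in EV-treated (limma adjusted p = 0.0202) and -2.98 in MSC-treated lung (limma adjusted p = 0.00529). Its levels on MSC-treated arrays were -5.52 and -3.35, of which the first was not well above background. On the E1A scale the differences of the leading probe were -5.02 in EV-treated and -6.72 in MSC-treated lung. It passed in 18 of 19 settings for EV-treated lung, the exception being the one without smoke replicate 1 (adjusted p = 0.0597), and in all 19 for MSC-treated lung. The other probe passed in 14 of 18 settings for EV-treated lung, with adjusted p up to 0.12, and in 17 of 18 for MSC-treated lung, with adjusted p up to 0.0899. Both treatments and the naive group are compared with the same 2 smoke arrays, so these 3 comparisons share them.

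Bid, the protein that links caspase 8 to the mitochondria, had 1 probe. Its levels were -3.78 and -3.18 on smoke arrays, against -5.19 and -4.97 on naive arrays, the second of which was not well above background. The groups did not overlap. The difference was 1.60 ± 0.46 (SE, n = 2 each; limma adjusted p = 0.0251), and 4.56 on the E1A scale. With normexp background correction it turned to -0.41. It passed as higher in 13 of 18 settings. EV-treated lungs had -4.68 and -4.51, both below the smoke arrays, but the difference of -1.11 did not pass (limma adjusted p = 0.0894). MSC-treated lungs had -4.81 and -3.47; the first was not well above background, the second lay inside the range of the smoke arrays, and the difference of -0.66 did not pass (limma adjusted p = 0.249).

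Fas, the death receptor, had 2 probes that moved the same way in the 3 comparisons with smoke on the percentile scale. Only the second passed in any of them. The leading one, A_64_P131736, spanned -4.64 to -3.78 over all 8 arrays and passed in none of the comparisons with smoke or with naive lung. Smoke arrays had -4.34 and -4.64, against -3.78 and -4.05 on naive arrays, a difference of -0.58 (limma adjusted p = 0.154). The second probe, A_44_P463745, had -3.2704 and -3.2737 on MSC-treated arrays, against -4.94 and -5.35 on smoke arrays. On the percentile scale it was 3.67-fold higher in MSC-treated lung (1.88 ± 0.35, SE, n = 2 each; limma adjusted p = 0.0031), and it turned to -2.14 on the E1A scale. EV-treated lungs had -4.65 and -4.06 by that probe, and the difference from smoke of 0.80 did not pass (limma adjusted p = 0.109). It turned to -1.69 on the E1A scale (limma adjusted p = 0.0158).

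Bcl2l1, whose long product holds the pore-forming members in check, had 4 probes. The leading one, A_44_P548065, had levels of -4.61 and -3.55 on smoke arrays, against -1.90 and -0.33 on naive arrays. Its unscaled signal was 132 and 229 units on smoke arrays, against 152 and 289 units on naive arrays, so the signals overlapped and the levels did not. The difference in level was -2.97 ± 0.60 (SE, n = 2 each; limma adjusted p = 0.00732), or -2.41 relative to the median of all probes. On the E1A scale it was -0.0024 (limma adjusted p = 0.997). Probes A_64_P054730 and A_44_P1085814 were lower in smoke, with differences of -2.11 and -2.14 on the percentile scale (limma adjusted p = 0.00984 and 0.0138) and turned to 0.86 and 0.82 on the E1A scale, where neither passed. A_44_P1104090 was not well above background on the naive or the MSC-treated arrays, and its smoke level of -6.73 lay under the naive level of -5.62, so no fold is given. Its difference of -1.11 in smoke against naive lung did not pass (limma adjusted p = 0.145) and turned to 1.85 on the E1A scale. The 2 promoters printed for Bcl2l1 belong to different transcript starts, and which transcripts the 4 probes read was not analysed here.

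With treatment, the leading Bcl2l1 probe had -1.13 and -0.47 on EV-treated arrays and -0.22 and -0.89 on MSC-treated arrays, every one above both smoke arrays. Unscaled signals were 348 and 349 units on EV-treated arrays and 211 and 139 units on MSC-treated arrays, so the EV-treated ones lay above both smoke arrays and the MSC-treated ones within their range. EV-treated lung was 9.71-fold higher than untreated smoke lung on the percentile scale (3.28 ± 0.60, SE, n = 2 each; limma adjusted p = 0.00715) and 0.80 higher in log2 on the E1A scale, where it did not pass (limma adjusted p = 0.174). MSC-treated lung was 11.5-fold higher on the percentile scale (3.53 ± 0.60, SE, n = 2 each; limma adjusted p = 0.00199), and the difference turned to -0.50 on the E1A scale (limma adjusted p = 0.375). Relative to the median of all probes, the rises on the percentile scale were 2.78 and 2.85. The next 2 probes rose by 2.78 and 3.05 in EV-treated lung and by 2.99 and 3.40 in MSC-treated lung on the percentile scale; on the E1A scale they differed by 0.30 and 0.57, and by -1.03 and -0.62, and none of these passed. The dimmest probe, A_44_P1104090, was 5.91-fold higher in EV-treated than in untreated smoke lung (limma adjusted p = 0.0132), with 0.08 on the E1A scale (limma adjusted p = 0.899). In MSC-treated against untreated smoke lung its difference of 1.12 did not pass (limma adjusted p = 0.128) and turned to -2.90 on the E1A scale.

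Bcl2, the founding anti-apoptotic member, had 1 probe, with -3.19 and -2.87 on smoke arrays, against -3.01 and -1.70 on naive arrays. The groups overlapped, and the difference of -0.68 did not pass (limma adjusted p = 0.253). EV-treated lungs had -2.45 and -2.58 and MSC-treated lungs -2.98 and -2.32, with differences from smoke of 0.51 and 0.38 that did not pass (limma adjusted p = 0.398 and 0.499).

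Mcl1, the short-lived anti-apoptotic member, had the smallest differences of the 9 genes by its leading probe in the EV-treated and MSC-treated comparisons with smoke, 0.10 and -0.06 in log2. Its leading probe spanned -0.62 to 0.14 over all 8 arrays, and in smoke against naive lung it differed by 0.34 (limma adjusted p = 0.405). Neither of its 2 probes passed in any of the 6 comparisons on the percentile scale. On the E1A scale, where the median of all probes shifted by 2.40, the leading probe was 3.31 higher in smoke.

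Bak1, one of the pair of pore formers, had levels of 0.66 and 1.04 on smoke arrays, against 1.98 and 1.73 on naive arrays. It was 2.01-fold lower in smoke (-1.01 ± 0.31, SE, n = 2 each; limma adjusted p = 0.0328), but -0.45 relative to the median of all probes and higher by 1.96 on the E1A scale. It passed as lower in 8 of 19 settings. EV-treated arrays had 1.95 and 1.83 and MSC-treated arrays 2.46 and 1.91, every one above both smoke arrays. The rises were 1.04 (limma adjusted p = 0.0339) and 1.34 (limma adjusted p = 0.00801) on the percentile scale, and they turned to -1.44 and -2.69 on the E1A scale.

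Bax, the other pore former, had 2 probes that moved the same way in the 3 comparisons with smoke on the percentile scale. Only the second passed in any of them. The leading one, A_44_P1164081, had 1.19 and 1.38 on smoke arrays, against 1.85 and 1.01 on naive arrays; these overlapped, and the difference of -0.14 did not pass (limma adjusted p = 0.774). EV-treated arrays had 1.71 and 1.57 and MSC-treated arrays 1.84 and 1.22 by that probe, and neither difference from smoke passed (limma adjusted p = 0.476 and 0.604). The second, A_64_P015183, had -0.10 and 0.26 on smoke arrays, against 1.47 and 1.04 on naive arrays. It was 2.26-fold lower in smoke on the percentile scale (-1.18 ± 0.34, SE, n = 2 each; limma adjusted p = 0.0259) and 1.79 higher in log2 on the E1A scale. It passed as lower in 11 of 19 settings. On the percentile scale it was 2.24-fold higher in EV-treated and 2.67-fold higher in MSC-treated than in untreated smoke lung (limma adjusted p = 0.0315 and 0.00903), and it turned to -1.32 and -2.60 on the E1A scale.

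Casp9, the initiator caspase of the mitochondrial route, also had 2 probes that moved the same way in the 3 comparisons with smoke on the percentile scale. Only the second passed in any of them. The leading one, A_44_P238608, had -4.35 and -4.84 on smoke arrays, against -4.33 and -2.70 on naive arrays, and the difference of -1.08 did not pass (limma adjusted p = 0.191). Its differences from smoke of 0.20 in EV-treated and 0.98 in MSC-treated lung did not pass either (limma adjusted p = 0.816 and 0.214). The second, A_64_P205127, had -6.33 and -6.16 on smoke arrays, against -4.82 and -4.32 on naive arrays. It was 3.19-fold lower in smoke (-1.67 ± 0.45, SE, n = 2 each; limma adjusted p = 0.02), and it turned to 1.29 on the E1A scale. MSC-treated arrays had -3.85 and -3.53 by that probe, 5.88-fold above smoke (2.56 ± 0.45, SE, n = 2 each; limma adjusted p = 0.00232), and it turned to -1.46 on the E1A scale. EV-treated arrays had -6.24 and -4.92, one of them within the range of the smoke arrays, and the difference of 0.67 did not pass (limma adjusted p = 0.265). It turned to -1.81 on the E1A scale (limma adjusted p = 0.00539).

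**Figure D2:**
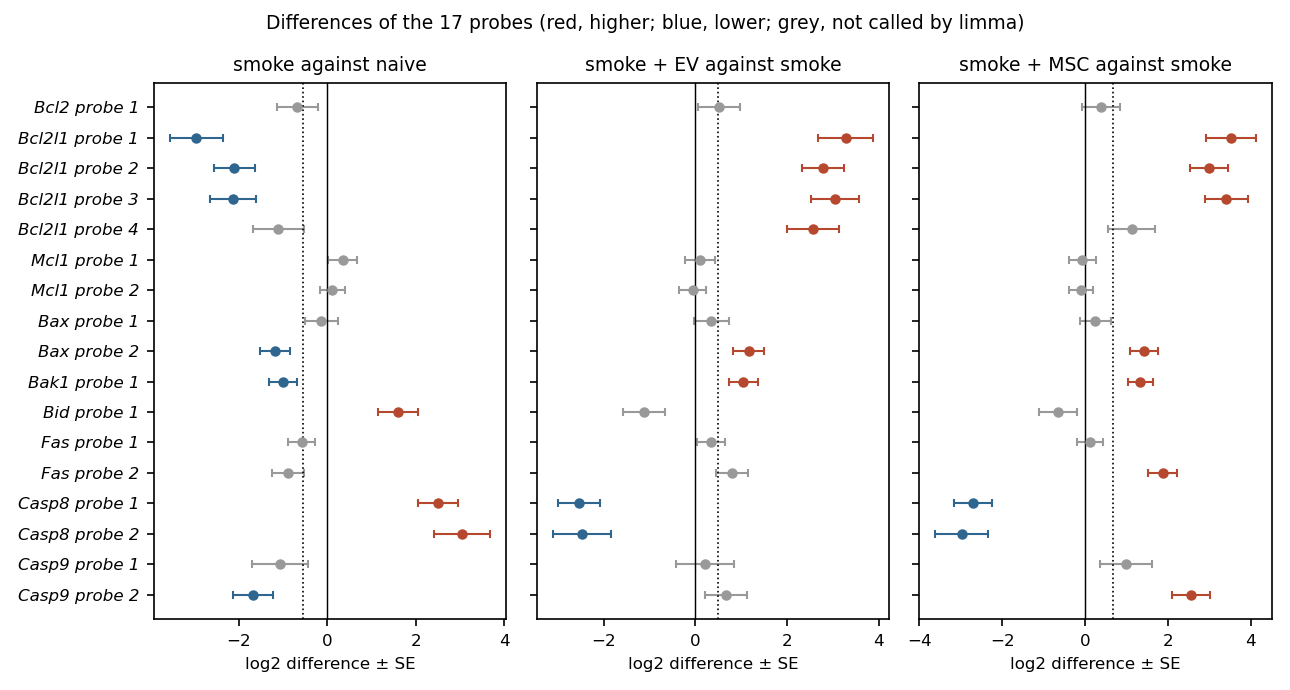
Log2 differences of the 17 probes on the percentile scale in 3 comparisons, with bars of 1 SE; red and blue points passed the limma test, higher and lower, grey points did not, and the dotted line is the median of all kept probes. Casp8 lay at 2.50 and 3.05 in smoke against naive and between -2.48 and -2.98 in the 2 treatments. The 4 Bcl2l1 probes lay on the opposite side of 0 in each of the 3 comparisons. The dimmest of them passed only in EV-treated against untreated smoke. The lower Bcl2l1, Bak1, Bax and Casp9 values in smoke do not hold on the E1A scale.

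**Figure D3:**
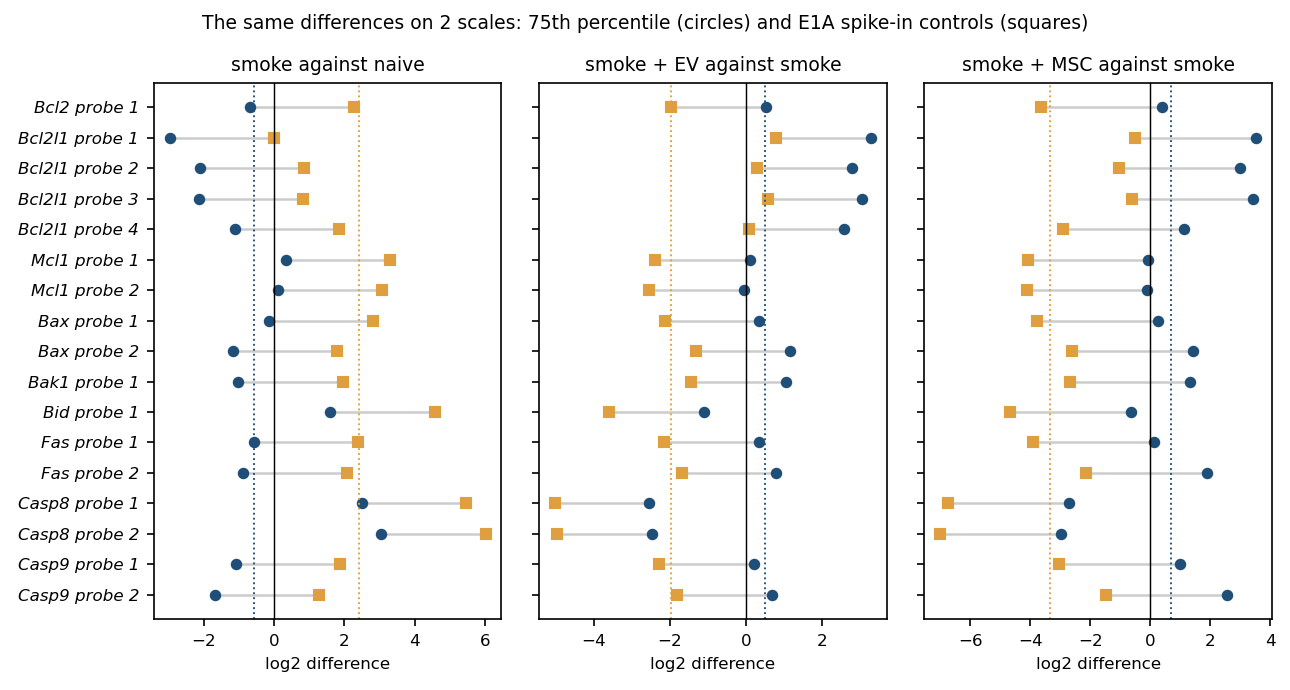
The same log2 differences scaled to the 75th percentile (circles) and to E1A controls (squares), with the median of all kept probes on each scale as a dotted line. In smoke against naive the 6 probes that passed as lower on the percentile scale moved to between -0.0024 and 1.96 on the E1A scale, and within each panel both scales gave the Casp8 differences the same sign.

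Counted together, 8 of the 17 probes passed in EV-treated against untreated smoke lung, 6 higher and 2 lower, where 38.9% of all kept probes passed, 28.4% higher and 10.5% lower. The members' median difference was 0.51 over the 17 probes and 0.34 over the 9 genes by leading probe, against 0.50 over all kept probes. In MSC-treated against untreated smoke lung 9 passed, 7 higher and 2 lower, where 58.8% of all kept probes passed, 41.9% higher and 16.9% lower. The members' median there was 0.98 over the 17 probes, of which 4 are of Bcl2l1, and 0.24 over the 9 genes by leading probe, against 0.68 over all kept probes. Both shares that passed are again near those of the whole array. On the E1A scale 13 and 14 of the 17 were lower and 0 higher, where 22145 and 26340 of the 29801 kept probes were lower. For EV-treated lung, 0 of the 17 passed without smoke replicate 1 and 5 without smoke replicate 2, where 6.93% and 26.9% of all kept probes passed. Without EV-treated replicate 1 it was 4 and without EV-treated replicate 2 it was 3, where 21.3% and 8.4% of all kept probes passed. For MSC-treated lung the counts without 1 array lay between 7 and 11, where between 39.3% and 59.3% of all kept probes passed.

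Vesicles and cells were then compared with each other. In EV-treated against MSC-treated smoke lung 3 of the 17 probes had an unadjusted limma p under 0.05, where 9058 of the 29801 kept probes had. By adjusted p 0 of the 17 passed, where 5.64% of all kept probes passed. That share was itself 0 with the replicate number as a block, when EV-treated and MSC-treated arrays were fitted alone, when dim probes were kept, and without any 1 of the smoke or EV-treated arrays. The 3 were the second probe of Casp9 (-1.89, limma adjusted p = 0.0523), the second probe of Fas (-1.08, limma adjusted p = 0.0943) and the dimmest probe of Bcl2l1 (1.44, limma adjusted p = 0.142). That Bcl2l1 probe was well above background on both EV-treated arrays, at -4.14 and -4.19, and on neither MSC-treated array. Against the higher of its own level and the lowest detected level there, it was 2.41-fold higher in EV-treated lung, which is no assured minimum. By their leading probes the 9 genes differed by between -0.78 (Casp9) and 0.21 (Fas). The second probes of Casp9 and Fas differed by -0.35 and 0.46 on the E1A scale, and the dimmest Bcl2l1 probe by 2.98. Other settings called between 0 and 9 of the 17. On the E1A scale 9 were called, all higher, where 40.5% of all kept probes passed, 12051 of those 12062 higher. With normexp background correction 5 were called, all lower, where 51.6% of all kept probes passed, 14548 of those 15376 lower. These directions are therefore those of the whole array.

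Against naive lung, neither treated group had a probe of these genes that passed by limma, where 0.0% of all kept probes passed in either comparison. At an unadjusted p under 0.05 there was 1 probe in EV-treated lung and 2 in MSC-treated lung. In EV-treated against naive lung the leading Casp8 probe differed by -0.04 ± 0.45 and the leading Bcl2l1 probe by 0.31 ± 0.60 in log2 (SE, n = 2 each). In MSC-treated against naive lung they differed by -0.20 ± 0.45 and 0.56 ± 0.60 (SE, n = 2 each). The dimmest Bcl2l1 probe was 2.73-fold higher in EV-treated than in naive lung by its levels and did not pass (limma adjusted p = 0.963). It was not well above background on the naive arrays, so this fold is no assured minimum. With errors of this size, a difference that misses the threshold does not show that the treated and naive levels were alike.

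A difference between 2 genes on the same array does not depend on the factor by which the array was scaled. The pairs, chosen after the values were seen, set a pro-apoptotic gene against an anti-apoptotic one by their leading probes, with the naive mean set to 0. Casp8 minus Bcl2l1 stood at 6.27 and 4.66 on smoke arrays, against 0.69 and -0.69 on naive arrays. On EV-treated arrays it was -0.03 and -0.67, and on MSC-treated arrays -1.76 and 0.24. The smoke arrays lay above the other 6. Casp8 and Bcl2l1 are the genes with the largest rise and the largest fall in smoke by leading probe on the percentile scale, so this difference restates theirs and is given as a description, with no test. Smoke minus naive was 5.47, EV-treated minus smoke -5.82 and MSC-treated minus smoke -6.23 in log2. Bid minus Bcl2l1 differed by 4.56, -4.39 and -4.18 in the same 3 comparisons, and Bak1 minus Bcl2l1 by 1.96, -2.24 and -2.19, again with no overlap. These 2 pairs use the same Bcl2l1 probe and so restate its differences in part. Bak1 itself differed by -1.01 in smoke against naive on the percentile scale. Bax minus Bcl2, a pair often used as an index of the mitochondrial route, was 0.60 and 0.47 on smoke arrays, against 1.08 and -1.08 on naive arrays, and these overlapped.

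**Figure D4:**
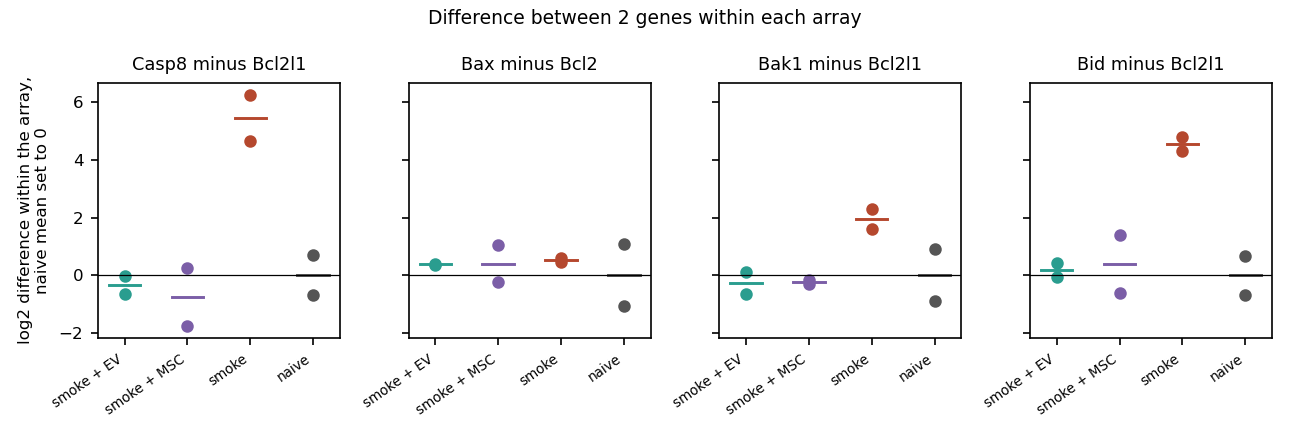
Log2 difference between 2 genes on each array, by their leading probes, with the naive mean set to 0; points are arrays and bars group means. Casp8 minus Bcl2l1 was 6.27 and 4.66 on smoke arrays and between -1.76 and 0.69 on the other 6, while Bax minus Bcl2 overlapped between smoke and naive arrays.

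The rest of the pathway was read from 36 further genes in 5 lists, of which 35 had a probe with that symbol and 34 a kept one. In smoke against naive lung 2 were higher, 9 lower and 23 did not pass, where 12.8% of all kept probes were higher and 33.7% lower. The share of the list lay under that of the array in both directions, so the count is no result about the pathway. The median was -0.60, against -0.56 over all kept probes. On the percentile scale, the higher ones were Ripk1, a kinase recruited by death receptors, by 1.26 (limma adjusted p = 0.00815), and Bcl2a1, an anti-apoptotic member of the BCL2 family, by 1.36 (limma adjusted p = 0.0393). Both kept their direction on the E1A scale, as the shift between the scales requires, and Bcl2a1 turned to -0.41 with normexp background correction. The largest fall on the percentile scale was that of Apaf1, the scaffold on which caspase 9 is activated. Its levels were -2.51 and -2.04 on smoke arrays, against -0.08 and 0.06 on naive arrays, a difference of -2.26 (limma adjusted p = 0.0029) that turned to 0.70 on the E1A scale (limma adjusted p = 0.204). The others that were lower on the percentile scale were Bok (-1.94), Xiap (-1.67), the tumour necrosis factor receptor Tnfrsf1a (-1.65), Bik (-1.62), Bmf (-1.36), the TRAIL ligand Tnfsf10 (-1.15), Birc5 (-1.13) and the nuclease Dffb (-1.04), and each turned to a positive value on the E1A scale. Bok, Bik and Bmf are known to promote apoptosis, and Xiap and Birc5 belong to the family of inhibitors of apoptosis, so genes of opposite roles were among those lower.

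By role, 3 of 9 other pro-apoptotic BCL2 family genes measured were lower in smoke than in naive lung and 0 higher. Of 3 other anti-apoptotic members, 1 was higher and 0 lower. Of 7 other caspases and apoptosome genes, 0 were higher and 2 lower. Of 7 death receptor, ligand and adaptor genes 1 was higher and 2 lower, and of 8 inhibitors of apoptosis and their mitochondrial antagonists 0 were higher and 2 lower. In none of the 5 lists did the share of lower genes exceed the 33.7% of all kept probes, and the single higher genes stand beside 12.8%. Probes of Cflar, the decoy of caspase 8, were called in opposite directions in each comparison with smoke, and its leading probe did not pass.

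In EV-treated against untreated smoke lung 8 of the 34 genes were higher and 1 lower, where 28.4% of all kept probes were higher and 10.5% lower. The median was 0.39, against 0.50 over all kept probes. In MSC-treated against untreated smoke lung 11 were higher and 3 lower, where 41.9% of all kept probes were higher and 16.9% lower, and the median was 0.38, against 0.68. The shares of the list again lay under those of the array. Apaf1 was higher by 1.94 and 2.57 on the percentile scale (limma adjusted p = 0.00605 and 0.000636), Bok by 1.76 and 2.28, and Xiap by 1.34 and 2.38, in EV-treated and in MSC-treated lung in that order, and all 3 turned negative on the E1A scale. The others higher on the percentile scale in both were Bcl2l10, Bik, Bmf, Dffb and Tnfrsf1a, and in MSC-treated lung also Birc5, Fadd and Tnfsf10; each turned negative on the E1A scale. Lower in EV-treated lung was Bcl2a1 (-1.42, limma adjusted p = 0.0391), which turned to 0.056 with normexp background correction. Lower in MSC-treated lung were Bcl2l11, the BH3-only protein BIM (-2.03, limma adjusted p = 0.00391), Ripk1 (-1.42, limma adjusted p = 0.00286) and the mitochondrial flavoprotein Aifm1 (-1.08, limma adjusted p = 0.0372). These 3 stayed lower on the E1A scale, as the shift between the scales requires.

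**Figure D5:**
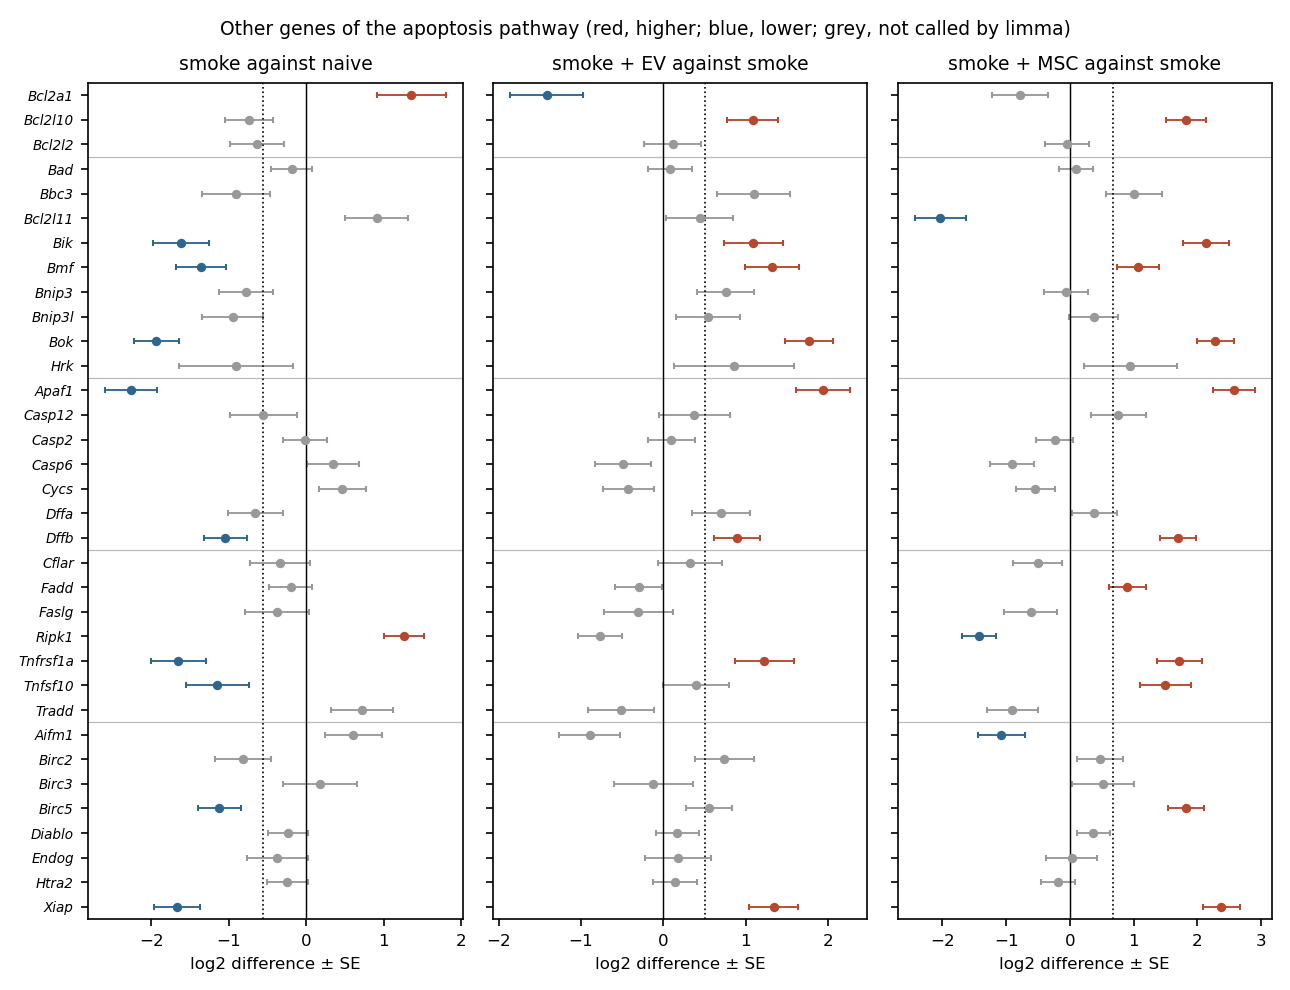
Log2 differences on the percentile scale of 34 other apoptosis genes in 3 comparisons, with bars of 1 SE; red and blue points passed the limma test, higher and lower, grey points did not, and the dotted line is the median of all kept probes. In smoke against naive 2 genes were higher and 9 lower; all 9 turned to positive values on the E1A scale.

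Between EV-treated and MSC-treated smoke lung 2 of the 34 genes passed, a share near the 5.64% of all kept probes and no result about the pathway. Many of the settings counted here leave a difference itself as it was. Bcl2l11 had levels of 0.57 and 0.14 on EV-treated arrays, against -2.25 and -1.99 on MSC-treated arrays (2.47 ± 0.40, SE, n = 2 each; limma adjusted p = 0.0396), kept its direction in all 20 settings and passed in 9 of them. Birc5, the inhibitor known as survivin, had -3.66 and -3.69 on EV-treated arrays, against -2.32 and -2.51 on MSC-treated arrays (-1.26 ± 0.28, SE, n = 2 each; limma adjusted p = 0.0466), passed in 4 of 20 settings and turned to 0.27 on the E1A scale. Against naive lung, 0 of the 34 passed by limma in either treated group, where 0.0% of all kept probes passed. With an unadjusted p under 0.05 there was 1 in EV-treated and 7 in MSC-treated lung, where 1253 and 6435 of the 29801 kept probes were.

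Markers of other cells moved with the same comparisons. Of 7 T and NK cell markers, 3 were higher in smoke than in naive lung, namely Cd8a, Gzmb and Prf1, and 2 lower, Cd3d and Cd3e. On the E1A scale Cd3d turned to 1.85 (limma adjusted p = 0.00793) and Cd3e to 0.51 (limma adjusted p = 0.41), while Cd8a, Gzmb and Prf1 stayed higher, as they must there. Cd8a, Gzmb and Prf1 were lower than in untreated smoke lung in both treated groups, with differences of -2.80, -2.62 and -2.02 in EV-treated and of -3.18, -3.24 and -3.52 in MSC-treated lung. On the E1A scale they stayed lower, as any probe lower on the percentile scale must in these 2 comparisons. In all, 1 of the 7 was higher and 3 lower in EV-treated lung, and 2 higher and 4 lower in MSC-treated lung. The summed level of the 7, linear and relative to the array's 75th percentile, was 3.22 and 2.50 on EV-treated arrays, 3.87 and 6.46 on MSC-treated arrays, 8.25 and 3.68 on smoke arrays and 3.74 and 3.002 on naive arrays. Of 5 macrophage markers 2 were higher in smoke than in naive lung and 1 lower, and the sum was 70.5 and 77.2 on smoke arrays, against 266 and 293 on naive arrays. Sums are divided by the percentile, which was 3235 and 2677 units on smoke arrays, against 568 and 362 on naive arrays. Lower sums in smoke, for these and for the type 2 markers below, therefore depend on the scale. Of 4 neutrophil markers measured 1 was higher, with sums of 4.30 and 2.81 on smoke arrays, against 2.89 and 7.01 on naive arrays. Alveolar type 2 markers summed to 335 and 340 on smoke arrays, against 964 and 1208 on naive arrays, with 0 of 5 higher and 2 lower. Those 2, Sftpb and Sftpc, turned to 1.82 (limma adjusted p = 0.00524) and 0.74 (limma adjusted p = 0.189) on the E1A scale. Of the endothelial markers, Cldn5 was higher in smoke by 2.42 and differed from untreated smoke lung by -2.04 in EV-treated and -2.62 in MSC-treated lung. The E1A scale could not turn these signs. Pecam1 moved the opposite way on the percentile scale, by -2.08, 1.81 and 2.48, and its signs turned on the E1A scale. Both measured cartilage markers were lower in smoke and higher in EV-treated and in MSC-treated lung on the percentile scale, and their signs turned on the E1A scale. Heart muscle markers summed to 25.1 on EV-treated replicate 1 and 58.8 on MSC-treated replicate 2, and to between 0.29 and 1.55 on the other 6 arrays. Whether these cells account for any difference in the apoptosis genes was not tested.

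Likeness to other genes was measured as the root mean square distance between profiles over the 8 arrays, each centred on its own mean, among 12714 other genes. Closest to Casp8 were Nubp1 (distance 0.14 log2 units) and Gtf2a2 (0.15), against the root mean square of 1.18 of the Casp8 profile itself. Closest to Bcl2l1, whose own value was 1.52, were Sec14l4 (0.25) and Zfp329 (0.32). Bid lay closest to Zfp597 (0.27) and RT1-Db1 (0.29), Bak1 to Fbxl14 (0.0592) and Rrn3 (0.0597), and Casp9 to Mad1l1 (0.28) and Ddx52 (0.32). Among the 9 genes the closest pair was Mcl1 and Bax, at 0.26. The 8 arrays are 4 groups of 2, and the distances are given as a description.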

How the data were processed

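Total RNA of 8 rat lung samples was hybridised, Cy3-labelled, to 1-colour Agilent arrays. Per the file headers, the authors deposited output of Agilent Feature Extraction 10.7.3.1. Its deposited intensity columns give, for each spot, a processed signal (background-subtracted and detrended) and the raw spot and local background signals. The other columns used from the deposited files are score flags of 0 or 1 for controls, outliers and spots well above background. The arrays had not been normalized to each other, as their percentiles show; later steps of the authors are not given in the sources used here.

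Outlier and control spots were dropped and the spots of a probe averaged. Its level was the log2 processed signal less that of the 75th percentile over spots. A probe was detected when no fewer of its spots were well above background than were not. Symbols came from matching unversioned RefSeq accessions to RefSeq's genes of assembly GRCr8, used for names only, which named 21215 of 45598 probes and 16667 genes. The share of probes detected on an array ran between 48.1% and 71.3%, and no spot was saturated. The number of arrays limits the precision.

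limma 3.58.1 in R 4.3.3 fitted 4 group means over 8 arrays per probe (4 residual degrees of freedom, prior 3.61), with Benjamini-Hochberg adjustment over 29801 kept probes at 0.05 in each of 6 comparisons. The script was tested on simulated data. Tables used Python 3.11.15 and pandas 2.3.3, and figures matplotlib 3.10.9. E1A scaling used the mean of the 7 of 10 E1A probes above 6 in log2. For a probe not well above background on both arrays of a group, a fold was computed against the higher of its own level and the lowest level among detected probes of each array. Such a fold is approximate and no assured minimum.

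The text names all 9 genes with every probe, the other pathway genes that passed in at least 1 of 3 comparisons with smoke, and for each gene the 2 closest profiles. The genes, pathway lists, markers and alternatives were chosen with earlier results of these data known; some pathway genes are not reported here. Alternatives were normexp with offset 50, quantile and cyclic loess normalization, E1A scaling, 2 other filters, the mean of a gene's probes, the replicate number as a block, fits of 2 groups, a trended robust prior and each array left out. The percentile over probes, the fits without both smoke arrays and the gene pairs were added after seeing the data.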

Additional observations from a re-analysis of the deposited data

Results flagged for a closer look

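Among the 34 other apoptosis genes, 2 had effects of the vesicles and of the cells against smoke that differed by the test of the difference itself, a share near the 5.64% of all kept probes that passed. Bcl2l11 was higher in EV-treated than in MSC-treated smoke lung by 2.47 in log2 (limma adjusted p = 0.0396). It was higher in all 20 settings, between 1.80 and 4.01, and passed in 9 of them, with adjusted p between 0.00192 and 0.247. Birc5 was lower in EV-treated than in MSC-treated smoke lung by -1.26 (limma adjusted p = 0.0466) and turned to 0.27 on the E1A scale. It passed in 4 of the 20 settings, with adjusted p between 0.0134 and 0.668. Both missed the threshold with the replicate number as a block. Settings that changed only the filter, the block, the estimate of the spread or an array of another group left both differences as they were. E1A scaling could only raise that of Bcl2l11. Groups of 2 arrays are too small for a test of single outlying samples.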

How the results depend on the processing

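Of the 17 probes, 9 passed in smoke against naive, 8 in EV-treated and 9 in MSC-treated against untreated smoke, and 0 in EV-treated against MSC-treated lung. Of all kept probes, 46.5%, 38.9%, 58.8% and 5.64% passed in the same order. With E1A scaling the counts of the 17 were 14, 13, 14 and 9, where 83.9%, 75%, 89.1% and 40.5% of all kept probes passed. With normexp they were 13, 13, 13 and 5, where 73.9%, 68.6%, 79% and 51.6% of all kept probes passed. Quantile normalization gave 5 in smoke against naive, where 36.6% of all kept probes passed. EV-treated against MSC-treated gave 1 of the 12 tested with probes detected on all 8 arrays only, where 17.3% of all such probes passed. With a trended robust prior it gave 1 of the 17, where 9.61% of all kept probes passed. With 1 array left out the counts lay between 1 and 9 in smoke against naive, 0 and 9 for EV-treated and 7 and 11 for MSC-treated against untreated smoke, and at 0 otherwise. EV-treated and MSC-treated against naive lung called 0 in every setting run. With the replicate number as a block (a row of the slide) the counts were 9, 8, 9 and 0. Of all kept probes, 44.8%, 36.7%, 58% and 0% passed with the block. The deviations of same-numbered arrays correlated at between -0.14 and 0.14 over the 6 pairs of groups, above 0.1 in 3 of them. This does not show that the numbers pair the samples. Over all kept probes, the block took the calls in EV-treated against MSC-treated lung to 0, against 1680 without it. On the E1A scale, in smoke against naive, the differences turned to 2.28 (Bcl2), 0.86, 0.82 and 1.85 (Bcl2l1), 2.82 and 1.79 (Bax), 1.96 (Bak1), 2.38 and 2.07 (Fas), 1.88 and 1.29 (Casp9), 0.70 (Apaf1), 1.34 (Bik), 1.84 (Birc5), 1.60 (Bmf), 1.03 (Bok), 1.92 (Dffb), 1.31 (Tnfrsf1a), 1.82 (Tnfsf10) and 1.29 (Xiap). In EV-treated against untreated smoke they turned to -1.97 (Bcl2), -2.39 (Mcl1), -2.13 and -1.32 (Bax), -1.44 (Bak1), -2.15 and -1.69 (Fas), -2.28 and -1.81 (Casp9), -0.55 (Apaf1), -1.40 (Bcl2l10), -1.39 (Bik), -1.17 (Bmf), -0.72 (Bok), -1.59 (Dffb), -1.26 (Tnfrsf1a) and -1.15 (Xiap). In MSC-treated against untreated smoke they turned to -3.64 (Bcl2), -0.50, -1.03, -0.62 and -2.90 (Bcl2l1), -3.78 and -2.60 (Bax), -2.69 (Bak1), -3.90 and -2.14 (Fas), -3.04 and -1.46 (Casp9), -1.45 (Apaf1), -2.20 (Bcl2l10), -1.88 (Bik), -2.20 (Birc5), -2.95 (Bmf), -1.74 (Bok), -2.33 (Dffb), -3.12 (Fadd), -2.31 (Tnfrsf1a), -2.52 (Tnfsf10) and -1.64 (Xiap). Birc5 in EV-treated against MSC-treated lung turned to 0.27. With normexp, Bid turned to -0.41, 0.24 and 1.16 in the comparisons of smoke with naive, EV-treated with smoke and MSC-treated with smoke, and Bcl2a1 to -0.41 and 0.056 in the first and second. In smoke against naive the leading probe of Bax turned to 0.30 with quantile normalization, 0.38 with cyclic loess and 0.073 with the percentile over probes, and that of Fas to 0.049 with loess. In EV-treated against untreated smoke, quantile normalization gave -0.10 (Mcl1), -0.007 (Bax), -0.18 (Fas) and -0.32 and, by the second probe, -0.12 (Casp9), loess gave -0.24, -0.11, -0.26 and -0.38 for the leading probes of the same genes, and the percentile over probes gave -0.0498 for Mcl1. In MSC-treated against untreated smoke, quantile normalization gave -0.18 (Bcl2), -0.25 (the dimmest Bcl2l1 probe), -0.27 (Bax), -0.88 (Fas) and -0.37 (Fadd), loess gave -0.17 (Bcl2), -0.29 (Bax), -0.93 (Fas) and -0.034 (Casp9), and the percentile over probes gave -0.013 (Bcl2), -0.16 (Bax) and -0.27 (Fas). With 1 array left out, the leading probe of Bax ranged over -0.56 to 0.28 in smoke against naive and -0.071 to 0.55 in MSC-treated against untreated smoke, where Bid ranged over -1.33 to 0.011, Fas over -0.14 to 0.39 and Mcl1 over -0.42 to 0.30; Casp9 in EV-treated against untreated smoke ranged over -0.18 to 0.58. The second Mcl1 probe turned to 0.018 with the mean of the probes of a gene in EV-treated against untreated smoke, and with 1 array left out it ranged there over -0.18 to 0.049 and in MSC-treated against untreated smoke over -0.34 to 0.14. Apart from E1A scaling and, for Bid and Bcl2a1, normexp, and for Fadd quantile normalization, the genes that turned had not passed the test. Both Casp8 probes kept their direction in the 3 comparisons with smoke under every setting run, a direction that E1A scaling and the settings leaving a difference unchanged could not turn. The cause of these changes was not tested.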
